A study of Homo sapiens with 16 samples.

Results

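The enzymes of histidine breakdown and of the urea cycle, with the histamine-forming enzyme and the enzymes that open tyrosine and tryptophan breakdown, were followed as 10 genes in HepG2, an established human hepatoma cell line. They were taken by name (HAL, UROC1, AMDHD1, FTCD, HDC, CPS1, ARG1, ASS1, TAT and TDO2). All 10 had exactly 1 row with that symbol among the 23780 rows of the array table that carry a single gene symbol. These rows hold 22464 named genes. The study design crosses PD98059, an inhibitor of the kinase MEK, with removal of histidine, and so asks whether the response to histidine loss depends on MEK activity. Cells received the solvent DMSO or 2.5 uM PD98059 for 1 h and then spent 8 h in complete Dulbecco's modified Eagle's medium or in the same medium lacking histidine, with solvent or inhibitor kept on. The 4 groups were therefore DMSO in complete medium, DMSO without histidine, PD98059 in complete medium and PD98059 without histidine, each with 4 arrays from independent incubations of the 1 cell line. Some labels print the dose with another unit, read here as a lost micro sign.

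Histidine cannot be made by human cells. In liver it is broken down in a linear pathway in which histidase (HAL) makes urocanate, urocanase (UROC1) hydrates it, imidazolonepropionase (AMDHD1) opens the ring, and formimidoyltransferase cyclodeaminase (FTCD) passes the one-carbon unit to tetrahydrofolate and leaves glutamate. The nitrogen released by amino acid breakdown enters the urea cycle at mitochondrial carbamoyl phosphate synthetase (CPS1). Argininosuccinate synthetase (ASS1) then adds the nitrogen of aspartate, and cytosolic arginase (ARG1) releases urea. Tyrosine aminotransferase (TAT) and tryptophan dioxygenase (TDO2) open the breakdown of their amino acids and are classical glucocorticoid-induced liver genes in rat, while histidine decarboxylase (HDC), best known from mast cells and gastric cells, makes histamine.

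Promoter sequences are shown for the histidine breakdown genes that changed, since HAL and AMDHD1 are neighbours on chromosome 12 yet moved in opposite directions under PD98059 without histidine. In the RefSeq table of GRCh38 they face each other on opposite strands, do not overlap and have no listed gene between them. The lines give the 250 bases before each RefSeq start in GRCh38.p14, 5′ to 3′ along the gene, for HAL at chr12:95996345-95996594 on the minus strand, AMDHD1 at chr12:95943081-95943330 on the plus strand and FTCD at chr21:46155580-46155829 on the minus strand. Capitals mark a match to TTGCNNAA, a C/EBP motif.
HAL: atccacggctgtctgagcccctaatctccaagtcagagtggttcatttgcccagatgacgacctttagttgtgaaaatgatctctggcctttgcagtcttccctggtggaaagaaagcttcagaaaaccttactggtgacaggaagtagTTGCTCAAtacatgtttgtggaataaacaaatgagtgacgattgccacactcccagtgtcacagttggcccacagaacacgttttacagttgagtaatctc
AMDHD1: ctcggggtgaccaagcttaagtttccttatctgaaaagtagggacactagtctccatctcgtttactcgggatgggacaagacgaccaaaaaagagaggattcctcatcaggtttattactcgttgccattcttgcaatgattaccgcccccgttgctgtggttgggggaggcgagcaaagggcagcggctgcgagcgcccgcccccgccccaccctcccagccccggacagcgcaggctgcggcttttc
FTCD: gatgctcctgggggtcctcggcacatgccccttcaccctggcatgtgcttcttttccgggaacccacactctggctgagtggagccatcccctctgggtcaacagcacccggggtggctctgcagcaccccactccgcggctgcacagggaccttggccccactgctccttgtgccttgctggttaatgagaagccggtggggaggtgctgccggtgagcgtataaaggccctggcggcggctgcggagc
RefSeq windows from 250 bases before to 50 after the start were at hand for 9 of the 10 genes, 12 windows in all, 3 for CPS1 and 2 for ASS1. TAT had no entry. Each was searched on both strands for TGATGNAA (a C/EBP-ATF composite), TGACGTCA (the cyclic AMP response element), TTGCNNAA, CCGGAAGT (an ETS site) and ACANNNTGT (a glucocorticoid receptor motif), and only the HAL window held any match. The TTGCNNAA match begins 101 bases before the start, and an ACANNNTGT match, outside the printed stretch, begins 14 bases after it. Of 35116 such windows of all genes, 10.5% held TTGCNNAA, 5.37% ACANNNTGT, 3.62% TGATGNAA, 4.14% CCGGAAGT and 1.85% TGACGTCA, and a match here is a match of letters and nothing more.

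All values below are log2 expression values or differences of them. Levels are not compared between genes, since probes differ. The whole table had a median of 6.22, and HAL, ARG1 and TDO2 had means below it. The deposited table carried no detection calls, so whether dim values stood above background was not tested. Against that median, as a rough check of the cell type, means lay above it for all 8 hepatocyte markers with a named row (8.38 to 13.63). They lay above it for 4 of 5 biliary, 2 of 4 leukocyte, 2 of 4 endothelial and 2 of 4 stellate and fibroblast markers. Means in these 4 classes ran from 4.19 to 11.35, 3.92 to 9.96, 5.22 to 6.79 and 3.91 to 8.05, in that order. Markers above the median included CD68 at 9.96 and PDGFRB at 8.05, while the leukocyte marker PTPRC lay at 3.92. Both mast cell markers with a named row lay below the median, at 4.05 and 4.09. The table median also covers rows without a gene name, and 13696 of the 22464 named genes lay above it. The counts of markers above it therefore say little about cell type. The array most distant from its own group was replicate 3 of PD98059 without histidine, whose values deviated from the group means by 0.111 (root mean square over genes) where the other 15 arrays deviated by 0.0496 to 0.0760. Calls of the 10 genes that change without it, and the values of FTCD, CPS1 and HDC without it, are given beside the value.

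Histidine depletion with DMSO moved these enzymes in different directions. TAT rose 1.78-fold and ASS1 1.12-fold, while FTCD, ARG1, CPS1 and AMDHD1 fell. In total, 6 of the 10 genes were called at an adjusted p under 0.05 by limma, 2 higher and 4 lower, where 33.3% of all genes were called (14.8% rising, 18.4% falling). For 7 of the 10 genes no array of one group reached the range of the other, against 41.4% of all genes. The median size of the difference, sign ignored, was 0.14 for the 10 genes and 0.075 for all genes, and with sign the medians were 0.05 and 0.03. In cultures measured in bulk, fewer cells carrying a transcript and less of it per cell cannot be told apart.

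**Figure D1:**
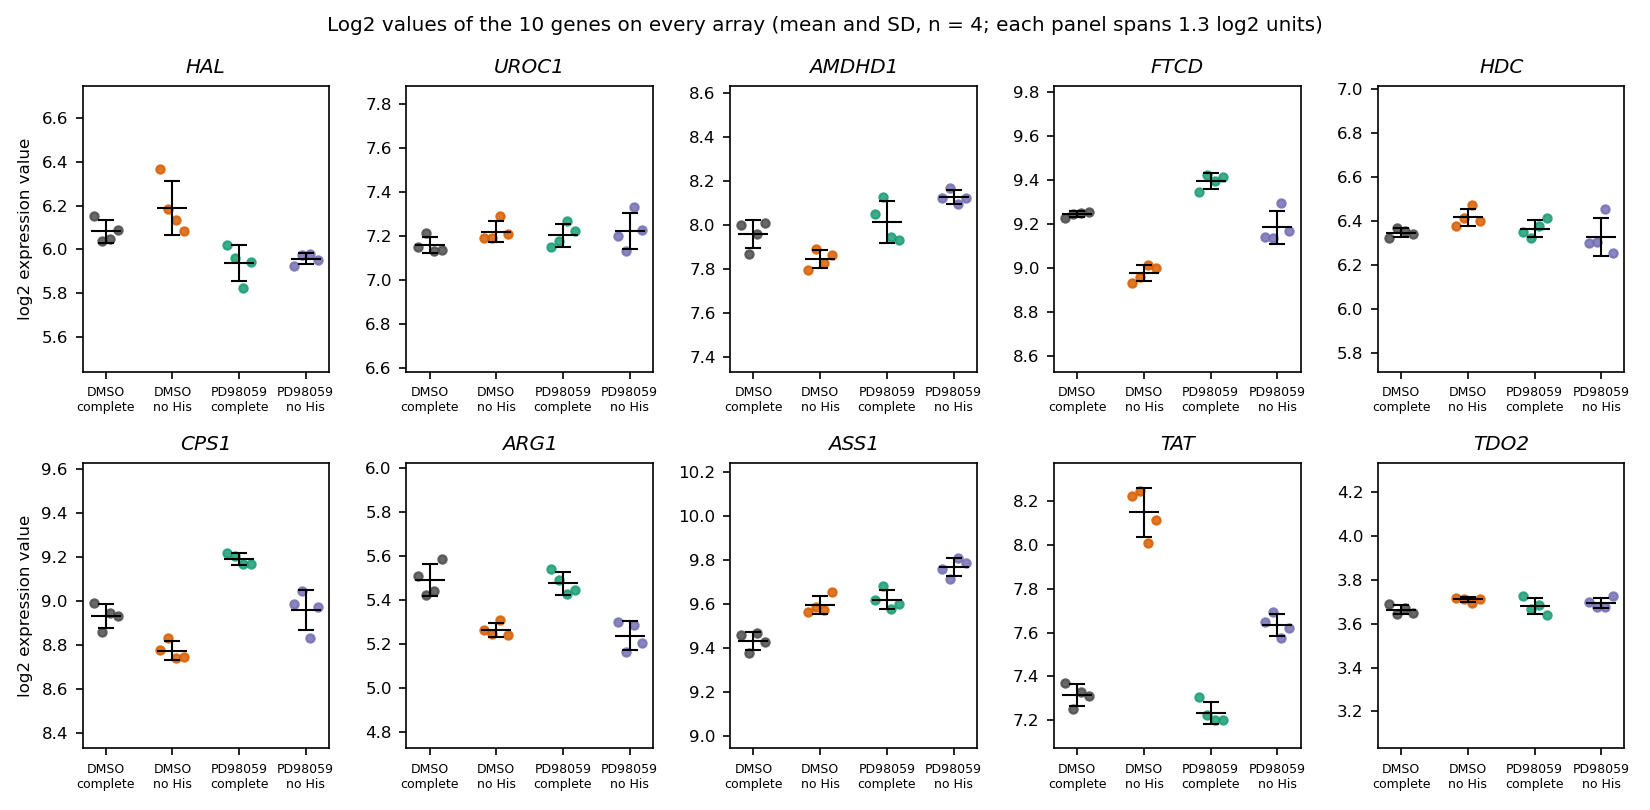
Log2 expression value (vertical axis, each panel spanning the same range) of each of the 10 genes in the 4 groups. Points are single arrays, the wide bar is the mean and the whiskers the SD of 4 arrays. TAT in DMSO without histidine lies between 8.01 and 8.25, above every other array, while the arrays of UROC1 and TDO2 lie close together in all groups.

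TAT, the transaminase that opens tyrosine breakdown, had the largest range of group means of the 10 genes, 0.91. Its arrays read 7.37, 7.25, 7.33 and 7.31 with DMSO in complete medium and 8.22, 8.25, 8.01 and 8.11 with DMSO without histidine. With PD98059 they read 7.31, 7.23, 7.20 and 7.20 in complete medium and 7.65, 7.69, 7.57 and 7.62 without histidine. Every depleted array lay above every complete-medium array, and under depletion every DMSO array lay above every PD98059 array. The response was 0.83 ± 0.047 with DMSO (standard error of the limma fit, adjusted p = 7.63e-10) and 0.40 ± 0.047 with PD98059 (1.32-fold, adjusted p = 5.77e-06). PD98059 lowered TAT by a log2 difference of -0.51 ± 0.047 without histidine (adjusted p = 4.60e-07). In complete medium its difference was -0.08 (95% interval -0.18 to 0.02, adjusted p = 0.334).

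TDO2, the tryptophan dioxygenase, was not called in any contrast. Its 16 values lay between 3.64 and 3.73, below the table median. With DMSO the difference on depletion was 0.05 (95% interval -0.003 to 0.10, adjusted p = 0.148), and the other differences between groups lay between -0.02 and 0.02. Arrays of DMSO with and without histidine did not overlap, at 3.64 to 3.69 and 3.70 to 3.72, and array weights gave 0.05 with an adjusted p = 0.0319.

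FTCD, which hands the carbon of histidine to folate, had lower values without histidine and higher values with PD98059. Its arrays read 9.23, 9.25, 9.25 and 9.25 with DMSO in complete medium and 8.93, 8.96, 9.01 and 9.00 with DMSO without histidine. Under PD98059 they read 9.34, 9.42, 9.40 and 9.42 in complete medium and 9.14, 9.14, 9.29 and 9.17 without histidine, the highest of the last being replicate 3. Neither depletion contrast had overlapping arrays, nor did either drug contrast. FTCD fell by 0.27 ± 0.033 on depletion with DMSO (adjusted p = 7.35e-06) and by 0.21 ± 0.033 with PD98059 (adjusted p = 0.000122), or by 0.25 without replicate 3 of PD98059 without histidine. PD98059 raised it by 0.15 ± 0.033 in complete medium (adjusted p = 0.00512) and by 0.21 ± 0.033 without histidine (adjusted p = 0.000166), or by 0.17 without that array. Depletion and drug contrasts share arrays, so these values are not independent of each other.

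AMDHD1, the imidazolonepropionase, read 8.00, 7.87, 7.96 and 8.01 with DMSO in complete medium and 7.79, 7.89, 7.83 and 7.86 with DMSO without histidine. Under PD98059 it read 8.05, 8.13, 7.94 and 7.93 in complete medium and 8.12, 8.17, 8.09 and 8.12 without histidine. The arrays without histidine separated fully by drug, while both depletion contrasts had overlapping arrays. PD98059 raised AMDHD1 by 0.28 ± 0.043 without histidine (1.22-fold, adjusted p = 9.10e-05), and the difference was 0.06 in complete medium (95% interval -0.04 to 0.15, adjusted p = 0.518). On depletion with DMSO it fell by 0.11 ± 0.043 (adjusted p = 0.0493), and with PD98059 it was at 0.11 ± 0.043 (adjusted p = 0.0619). The call with DMSO was close to the threshold: it was lost without any 1 of 10 of the 16 arrays, with values of -0.15 to -0.10 and adjusted p from 0.0155 to 0.136 over all 16 omissions. The difference with PD98059 became a call without replicate 2 of either complete-medium group. Over all 16 omissions its values were 0.09 to 0.15, with adjusted p from 0.00955 to 0.201.

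HAL, the histidase that opens histidine breakdown, read 6.15, 6.04, 6.05 and 6.09 with DMSO in complete medium and 6.36, 6.18, 6.13 and 6.08 with DMSO without histidine. With PD98059 it read 6.02, 5.96, 5.82 and 5.95 in complete medium and 5.92, 5.98, 5.98 and 5.95 without histidine. In either medium every PD98059 array lay below every DMSO array, and the groups with and without histidine overlapped. PD98059 lowered HAL by a log2 difference of -0.23 ± 0.053 without histidine (adjusted p = 0.00306). In complete medium the difference was -0.14 ± 0.053 (adjusted p = 0.0838). It was also -0.14 without replicate 1 of DMSO without histidine, an array outside this contrast that enters the spread, with an adjusted p = 0.0236. The depletion difference with DMSO rested on the same array: it was 0.11 with all arrays (95% interval -0.004 to 0.22, adjusted p = 0.133) and 0.05 without that replicate (adjusted p = 0.404). With PD98059 it was 0.02 (95% interval -0.09 to 0.13, adjusted p = 0.866).

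UROC1, the urocanase between HAL and AMDHD1 in the pathway, had values of 7.13 to 7.33 on the 16 arrays with overlapping groups in every contrast. It was called in none of the contrasts by limma, with differences from -0.04 to 0.06, adjusted p from 0.263 to 0.972 and unadjusted p from 0.146 to 0.934. Its widest interval for a contrast of groups reached 0.15.

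HDC, the histamine-forming enzyme, had values of 6.26 to 6.47 and was not called in any contrast, with differences from -0.11 to 0.07. With DMSO its arrays read 6.32 to 6.37 in complete medium and 6.38 to 6.47 without histidine, and these did not overlap (0.07 ± 0.037, adjusted p = 0.169). Under PD98059 without histidine 3 arrays read 6.26 to 6.30 and replicate 3 read 6.45. Without that replicate HDC was at -0.13 for PD98059 without histidine (adjusted p = 0.00186), at 0.07 (adjusted p = 0.0403) and -0.08 (adjusted p = 0.0392) for depletion with DMSO and with PD98059, and at -0.15 for the difference of these responses (adjusted p = 0.0162). The HDC results thus rest on that 1 array and, as given at the end, on the fit used. Both measured mast cell markers stayed low, with no array above 4.09 for KIT or above 4.20 for CPA3.

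CPS1, the mitochondrial entry enzyme of the urea cycle, read 8.99, 8.86, 8.95 and 8.93 with DMSO in complete medium and 8.78, 8.83, 8.74 and 8.75 with DMSO without histidine. Under PD98059 it read 9.22, 9.21, 9.17 and 9.17 in complete medium and 8.99, 9.05, 8.83 and 8.98 without histidine, the lowest of the last being replicate 3. Values were lower without histidine in both settings with no overlap, and higher with PD98059, with overlap only in the depleted medium. CPS1 fell by 0.16 ± 0.041 on depletion with DMSO (adjusted p = 0.00598) and by 0.23 ± 0.041 with PD98059 (adjusted p = 0.000327), or by 0.19 without replicate 3 of PD98059 without histidine. PD98059 raised it by 0.26 ± 0.041 in complete medium (adjusted p = 0.00027) and by 0.19 ± 0.041 without histidine (adjusted p = 0.00233), or by 0.23 without that array.

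ASS1, the step that joins citrulline and aspartate, was higher both without histidine and with PD98059. It read 9.46, 9.38, 9.47 and 9.43 with DMSO in complete medium, 9.56, 9.59, 9.57 and 9.66 with DMSO without histidine, 9.62, 9.68, 9.58 and 9.60 with PD98059 in complete medium, and 9.76, 9.71, 9.81 and 9.79 with both. The group means ran in that order, and only the middle groups overlapped, 0.03 apart against a pooled SD of 0.042. Depletion raised ASS1 by 0.16 ± 0.031 with DMSO (adjusted p = 0.000591) and by 0.15 ± 0.031 with PD98059 (adjusted p = 0.00154). The drug raised it by 0.19 ± 0.031 in complete medium (adjusted p = 0.000521) and by 0.17 ± 0.031 without histidine (adjusted p = 0.000492). The difference of the depletion responses was -0.01 (95% interval -0.11 to 0.08).

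ARG1, cytosolic arginase, fell on depletion in both settings and was not called for the drug. It read 5.51, 5.42, 5.44 and 5.59 with DMSO in complete medium and 5.26, 5.24, 5.31 and 5.24 with DMSO without histidine. Under PD98059 it read 5.54, 5.49, 5.43 and 5.44 in complete medium and 5.30, 5.16, 5.29 and 5.20 without histidine. All 8 depleted arrays lay below all 8 arrays in complete medium. Depletion lowered it by 0.23 with DMSO (log2 difference -0.23 ± 0.040, adjusted p = 0.000263) and by 0.24 with PD98059 (-0.24 ± 0.040, adjusted p = 0.000216). For PD98059 the differences were -0.01 in complete medium (95% interval -0.10 to 0.07) and -0.03 without histidine (95% interval -0.11 to 0.06).

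With PD98059 present, depletion left the same 5 genes called as with DMSO apart from AMDHD1: TAT and ASS1 rose, and FTCD, CPS1 and ARG1 fell. That is 5 of 10 genes, where 27.4% of all genes were called (12.0% rising, 15.3% falling). Arrays did not overlap for 5 of the 10 genes, against 25.1% of all genes. The median of the 10 differences was 0.02, and 0.003 over all genes.

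In complete medium, PD98059 raised CPS1, ASS1 and FTCD and lowered none of the 10 genes. These 3 calls of 10 compare with 14.3% of all genes called (7.59% rising, 6.74% falling), and arrays did not overlap for 4 of the 10 genes, HAL being the other, against 21.8% of all genes. Without histidine, PD98059 raised AMDHD1, FTCD, CPS1 and ASS1 and lowered TAT and HAL. That made 6 calls of 10, where 24.4% of all genes were called (13.5% rising, 10.9% falling), and 5 genes without overlap, against 23.3% of all genes. Median differences were 0.03 in complete medium and -0.01 without histidine, beside 0.01 and -0.01 over all genes. The depletion and drug contrasts share their groups pairwise, so a gene's values in them are linked.

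**Figure D2:**
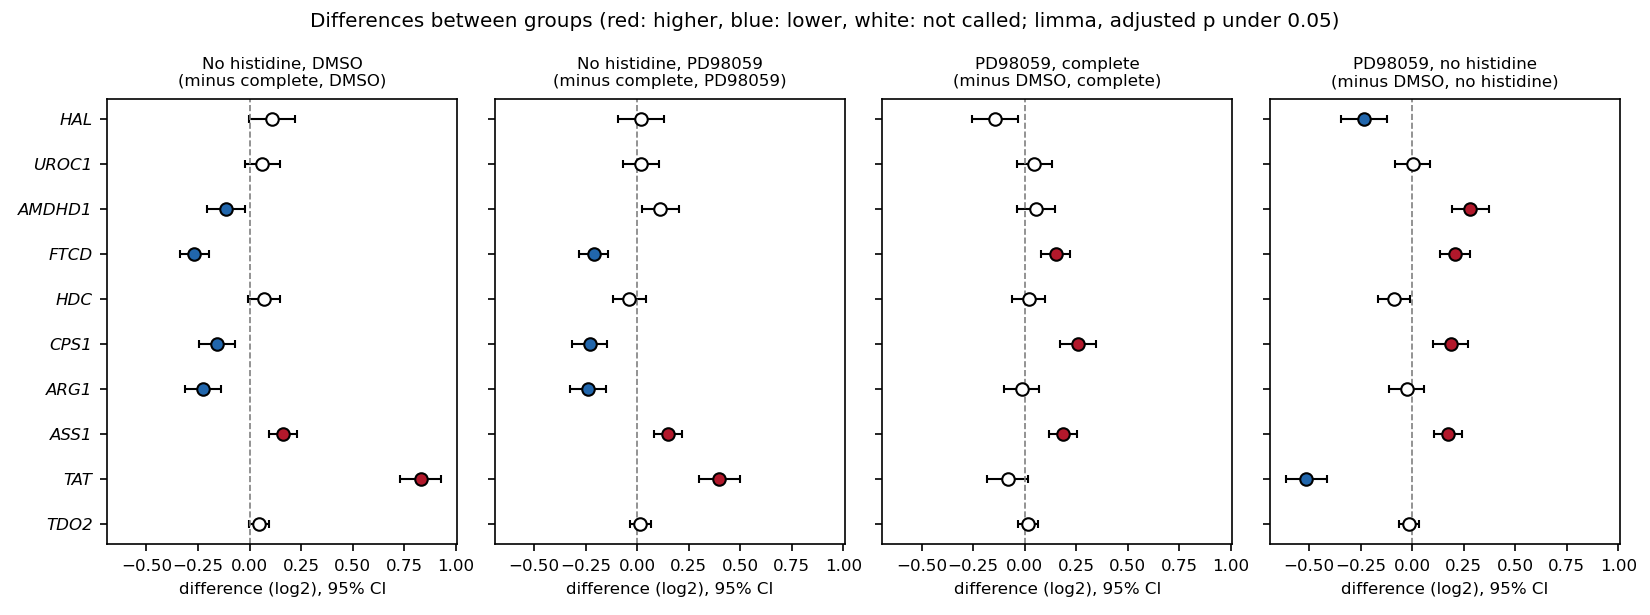
Differences of the 10 genes (vertical axis) in 4 contrasts of groups, on the log2 scale (horizontal axis), with 95% intervals of the limma fit. Red and blue circles are genes called higher or lower at an adjusted p under 0.05, white circles are not called. TAT reaches 0.83 on depletion with DMSO and 0.40 with PD98059, while FTCD and CPS1 lie left of 0 on depletion and right of 0 with the drug.

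The response to depletion differed with the drug for TAT and AMDHD1. The interaction, the response with PD98059 minus that with DMSO, was -0.43 ± 0.066 for TAT (adjusted p = 0.00080), whose call held without any 1 of the arrays (-0.48 to -0.40, adjusted p up to 0.00257). For AMDHD1 it was 0.23 ± 0.060 (adjusted p = 0.0359). That call was lost without any 1 of 11 of the 16 arrays, with values of 0.20 to 0.27 and adjusted p up to 0.0814. These are 2 calls of 10, 1 in each direction, where 5.74% of all genes were called (2.91% with a higher and 2.83% with a lower response under PD98059). That share rests on 1 array: without replicate 3 of PD98059 without histidine 3145 of the 22464 genes were called in place of 1289, and of the 10 genes 3, HDC being added. For the other 8 genes the interaction lay between -0.11 and 0.06. Their 95% intervals lay within -0.25 and 0.16, and differences of response inside those bounds were not resolved with 4 arrays a group.

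**Figure D3:**
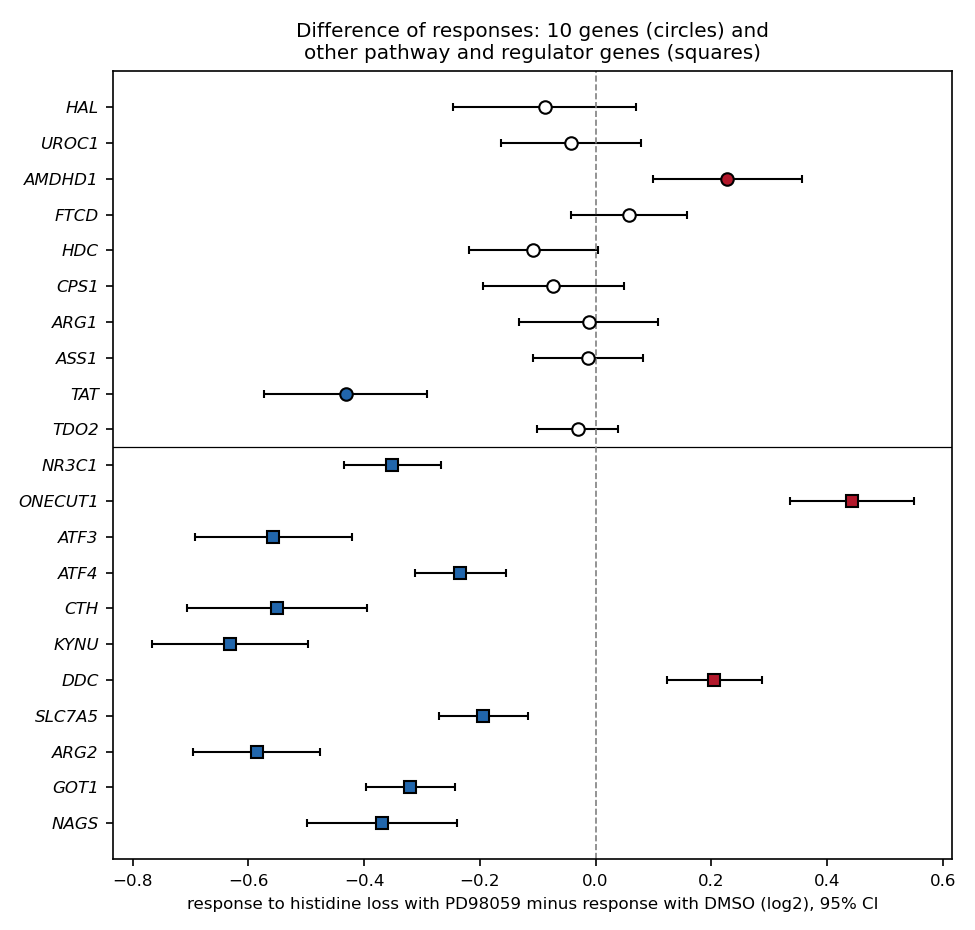
Difference of the depletion responses, PD98059 minus DMSO, on the log2 scale with 95% intervals of the limma fit, for the 10 genes (circles) and the other pathway and regulator genes named by the rule (squares). Red and blue symbols are called, white are not. TAT at -0.43 lies on the same side as ARG2, KYNU, CTH and NAGS, and AMDHD1 at 0.23 on the side of ONECUT1 and DDC.

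Beside each count for the gene lists below, the shares of all genes called stay those given above: 33.3% on depletion with DMSO, 27.4% on depletion with PD98059, and 14.3% and 24.4% for the drug in complete and depleted medium. The medians over all genes were 0.03, 0.003, 0.01 and -0.01 in that order.

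Other genes of urea formation and ammonia handling moved in both directions on depletion. Of 14 measured genes of an 18-gene list, 6 rose, 4 fell and 4 were not called with DMSO, and 2 rose, 4 fell and 8 were not called with PD98059. The list's median difference was 0.09 with DMSO, beside 0.03 over all genes. NAGS, which makes the obligate activator of CPS1, had group means of 8.63 in complete and 9.11 in depleted medium under DMSO and rose by 0.48 ± 0.043 (adjusted p = 1.69e-07). Under PD98059 its difference was 0.11 (adjusted p = 0.0668), and the interaction was -0.37 ± 0.061 (adjusted p = 0.00149).

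ARG2, the mitochondrial arginase, had means of 9.72 with DMSO in complete medium and 10.05 without histidine, and of 9.61 and 9.36 with PD98059. It rose by 0.33 ± 0.037 with DMSO (adjusted p = 1.80e-06) and fell by 0.25 ± 0.037 with PD98059 (adjusted p = 4.90e-05). The interaction of ARG2 was -0.59 ± 0.052 (adjusted p = 4.64e-06), and that of ARG1, its cytosolic counterpart, was -0.01 (95% interval -0.13 to 0.11). ARG1 had a mean of 5.37, below the table median of 6.22, and whether its low signal limits this comparison was not tested. GOT1, cytosolic aspartate aminotransferase, rose by 0.75 with DMSO and by 0.43 with PD98059. The glutamine synthetase gene GLUL fell by 0.47 and 0.46, and ODC1, the ornithine decarboxylase that opens polyamine synthesis, rose by 0.26 and 0.22. OAT, ornithine aminotransferase, fell by 0.18 and 0.32. OTC, the ornithine carbamoyltransferase, had means of 4.09 to 4.16 and was not called. ASL, argininosuccinate lyase, rose by 0.09 with DMSO (adjusted p = 0.00808) and was at 0.01 with PD98059 (adjusted p = 0.852).

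For the drug, 3 genes of that list rose and 2 fell in complete medium, and 4 rose and 4 fell without histidine. GLUL rose by 0.25 and 0.26 with PD98059 in complete and depleted medium, and GLUD1, glutamate dehydrogenase, by 0.18 and 0.14. GOT1 fell by 0.36 in complete medium and by 0.68 without histidine. In the interaction, ARG2, NAGS and GOT1 were the 3 called genes of the list, all negative, where 2.83% of all genes were called lower.

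Of 16 measured genes of 17 of aromatic amino acid breakdown beside TAT and TDO2, 2 rose and 6 fell on depletion with DMSO, and 1 rose and 5 fell with PD98059. The drug raised 6 and lowered 1 in complete medium, and raised 8 and lowered 1 without histidine. The list medians were -0.04 and -0.02 on depletion and 0.06 and 0.08 with the drug, beside 0.03, 0.003, 0.01 and -0.01 over all genes. KYNU, the kynureninase of tryptophan breakdown, rose by 0.77 ± 0.045 on depletion with DMSO (adjusted p = 1.22e-09) and by 0.13 with PD98059 (adjusted p = 0.0351), and its interaction was -0.63 ± 0.064 (adjusted p = 1.68e-05). DDC, the aromatic amino acid decarboxylase, fell by 0.47 with DMSO and by 0.27 with PD98059. HAAO, which acts further down tryptophan breakdown, rose with the drug by 0.28 in complete medium and by 0.34 without histidine. AFMID, the kynurenine formamidase, and QPRT, which makes the NAD precursor from quinolinate, each fell by 0.15 with DMSO, by 0.09 and 0.13 with PD98059, and rose with the drug without histidine by 0.16 and 0.14. GSTZ1, an isomerase of tyrosine breakdown, rose by 0.13 with the drug in complete medium. HPD, the enzyme after TAT in tyrosine breakdown, was at 0.04 on depletion with DMSO (adjusted p = 0.354) and fell by 0.09 with PD98059 (adjusted p = 0.0245).

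Among 14 measured of 15 other histidine-handling genes, 4 rose and 4 fell on depletion with DMSO, and 3 rose and 3 fell with PD98059. The list medians were 0.03 and 0.02, beside 0.03 and 0.003 over all genes. SLC7A5, a subunit of the large neutral amino acid transporter that also carries histidine, rose by 0.32 ± 0.026 with DMSO (adjusted p = 4.20e-08) and by 0.13 with PD98059 (adjusted p = 0.000959). Its interaction of -0.19 (adjusted p = 0.00387) was the 1 called of the 14 genes, where 5.74% of all genes were called. HARS1, the cytosolic histidyl-tRNA synthetase, rose by 0.17 ± 0.026 with DMSO (adjusted p = 4.76e-05) and was at 0.06 with PD98059 (adjusted p = 0.137), and the difference of these responses was -0.12 (adjusted p = 0.0762). MTHFD1 and ALDH1L1, which process the folate one-carbon units that FTCD feeds, fell by 0.31 and 0.14 with DMSO and by 0.26 and 0.19 with PD98059. SLC38A3, a transporter of glutamine and histidine, rose with PD98059 by 0.45 in complete medium (adjusted p = 1.17e-08) and by 0.42 without histidine (adjusted p = 8.01e-09). SLC38A5, a related transporter, fell by 0.17 on depletion with PD98059, and CNDP2, a dipeptidase, fell by 0.15 with the drug without histidine. The drug raised 3 and lowered 2 of this list in complete medium, and raised 3 and lowered 3 without histidine.

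Of 22 measured of 25 other amino acid breakdown genes, depletion raised 2 and lowered 10 with DMSO, and raised 2 and lowered 11 with PD98059. The list medians were -0.06 and -0.12, beside 0.03 and 0.003 over all genes. PD98059 raised 9 and lowered none in complete medium, and raised 10 and lowered 1 without histidine. The 2 genes that rose on depletion were CTH and CBS, the enzymes that convert homocysteine to cysteine. CTH, cystathionine gamma-lyase, rose by 1.86 with DMSO and by 1.31 with PD98059, an interaction of -0.55 (adjusted p = 0.000233). CBS, cystathionine beta-synthase, rose by 0.41 and 0.27. MAT1A, the liver methionine adenosyltransferase, fell by 0.42 on depletion with DMSO and rose by 0.30 with the drug in complete medium. GNMT, glycine N-methyltransferase, rose by 0.44 with the drug in complete medium and by 0.21 without histidine. The lysine breakdown genes ALDH7A1 and AASS fell by 0.28 and 0.20 on depletion with DMSO and by 0.21 and 0.35 with PD98059. AGXT, which detoxifies glyoxylate, and GLDC, of the glycine cleavage system, rose by 0.26 and 0.19 with the drug in complete medium and by 0.18 and 0.21 without histidine.

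Of 18 measured of 21 regulators linked to these enzymes in liver, mostly transcription factors, depletion raised 11, lowered 3 and left 4 not called with DMSO, and gave the same numbers with PD98059. The shares of all genes were 14.8% higher and 18.4% lower with DMSO, and 12.0% and 15.3% with PD98059. List medians were 0.24 and 0.14, beside 0.03 and 0.003 over all genes. The drug raised 6 and lowered 2 in complete medium, and raised 5 and lowered 3 without histidine, with 10 not called in either medium. NR3C1, the glucocorticoid receptor gene, rose by 0.62 ± 0.028 on depletion with DMSO (adjusted p = 4.24e-11) and by 0.27 ± 0.028 with PD98059 (adjusted p = 1.27e-06). Its interaction was -0.35 ± 0.039 (adjusted p = 5.01e-05), and the drug raised it by 0.34 in complete medium (adjusted p = 3.34e-07). ATF4, the central factor of the amino acid response, rose by 0.40 with DMSO and by 0.16 with PD98059, an interaction of -0.23 (adjusted p = 0.00101). DDIT3, the stress factor CHOP, rose by 1.42 and 1.51, an interaction of 0.09 (adjusted p = 0.556). ATF3, another stress-induced factor, rose by 1.18 and 0.63, an interaction of -0.56 (adjusted p = 6.37e-05). The ATF4 partner CEBPG rose by 0.88 and 0.94, an interaction of 0.06 (adjusted p = 0.576). CEBPA, a C/EBP factor of the hepatocyte, was at -0.01 on depletion with DMSO (adjusted p = 0.897), and PD98059 raised it by 0.25 in complete medium and by 0.37 without histidine. ONECUT1, a liver-enriched factor, fell by 0.61 on depletion with DMSO and by 0.17 with PD98059, an interaction of 0.44 (adjusted p = 5.73e-05). FOXA1, a pioneer factor of liver genes, fell by 0.38 and 0.20 on depletion and rose by 0.45 and 0.62 with the drug. FOXO1, an insulin-regulated factor, rose by 0.34 and 0.55 on depletion and fell by 0.40 and 0.19 with the drug.

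**Figure D4:**
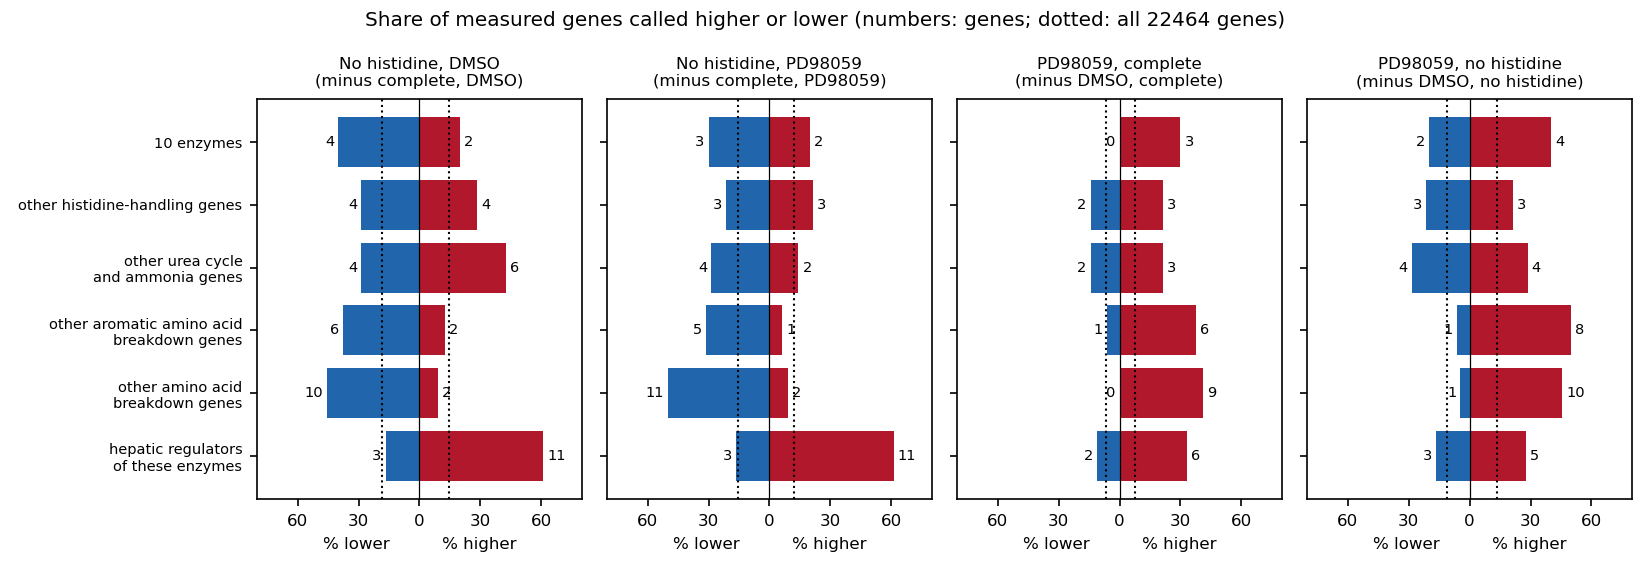
Percent of the measured genes of each list called higher (right, red) or lower (left, blue) in the 4 contrasts of groups. Numbers are genes, and dotted lines give the percent of all 22464 genes. On depletion with DMSO 6 of 14 urea cycle and ammonia genes were higher and 4 lower, while 10 of 22 other amino acid breakdown genes were lower and 2 higher.

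For each called gene the 3 genes with the highest Pearson correlation over the 16 arrays were listed from 13696 named genes above the table median, as a description, since all share the same 4 groups. TAT was most like ATXN1 (r = 0.997), NCOA7 (0.995) and MBNL2 (0.995). FTCD was most like PDK2 (0.986), SMO (0.985) and SLC25A1 (0.984), and CPS1 most like KANSL1L (0.983), NBR1 (0.980) and CA13 (0.979). ASS1 lay nearest to HINT2 (0.975), SLC30A10 (0.973) and CYP4F3 (0.972), AMDHD1 to ZNF334 (0.940), CRIM1-DT (0.932) and FANCF (0.930), and ARG1 to SLC39A1 (0.938), SEC61B (0.934) and TUBB (0.931). HAL was closest to ODF2 (0.899), IGFBP1 (0.891) and ZNF706 (0.888). IGFBP1, a secreted binding protein of insulin-like growth factors, had a far wider range, with means of 11.17 and 12.07 with DMSO in complete and depleted medium and of 10.19 and 10.20 with PD98059.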

How the data were processed

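Total RNA (100 ng) from 4 independent incubations per group was amplified and hybridised to 1-colour biotin-labelled Affymetrix arrays, per the labels' protocols. The authors deposited 1 table of log2 values with a column for each array, made with RMA and Partek 6.6 on build hg19, per the submitters' processing notes. Settings are not given in the sources used here. By its usual procedure RMA brings arrays to a common distribution and shrinks differences of dim probes. Array medians were 6.20 to 6.28.

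Rows with 1 gene symbol in the platform annotation were kept, 1 row per symbol by highest mean, which gave 22464 genes. A limma model (version 3.58.1, R 4.3.3, eBayes without trend) of the 4 group means used all 16 arrays, with Benjamini-Hochberg adjustment over all genes and calls below an adjusted p of 0.05. Adjusted p-values of genes are from this fit, values after ± are its standard errors, and p-values measure the spread between incubations of 1 cell line.

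Members and lists were chosen with earlier results of these data known. Named by rule were all 10 members, up to 4 called genes with the lowest adjusted p per list and contrast, and the 3 most correlated genes per called member. Further list members were named for their role in the pathway. List genes were looked up by their current symbol, and those without a row of their own are not analysed here. On simulated data for depletion with DMSO (22464 genes, 200 of them changed), the fit found 60.8% of genes changed by 0.2 and 93.1% of those changed by 0.4. The noise was independent and normal, with no deviant array, and the real contrast called 33.3% of all genes. These percentages therefore do not give the recovery of the fit on the real data. The fit was repeated with the replicate number as a block, with a contrast's own groups only, an intensity trend, a filter on dim genes, other scalings, averaged or separately tested rows, array weights, a stricter threshold and each array left out in turn. Promoters are from RefSeq (GRCh38.p14), and Python 3.11.15 was used for tables.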

Additional observations from a re-analysis of the deposited data

Results flagged for a closer look

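The depletion responses under PD98059 and under DMSO differed by the interaction test of the limma fit for 2 of the 10 genes. For TAT the difference of responses was -0.43 (adjusted p = 0.00080), with a rise in both settings. For AMDHD1 it was 0.23 (adjusted p = 0.0359), where depletion gave -0.11 with DMSO and 0.11 with PD98059. In none of the 40 groups of 4 arrays (10 genes in 4 groups) did 1 array stand apart from the other 3 beyond the 95% critical value of Dixon's test.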

How the results depend on the processing

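Of the 22 calls among the 50 gene and contrast pairs, 20 held in every alternative that tested the gene and none changed direction. The calls of AMDHD1 on depletion with DMSO and in the interaction were lost in 15 of 26 and 14 of 25 alternatives. Calls absent from the main fit appeared 19 times, counted per gene, contrast and alternative. For HDC, alternatives with every array of the contrast reached adjusted p of 0.0106 in the interaction in limma fits. They reached 0.0269 on depletion with PD98059 and 0.0378 with DMSO. The interaction count of 2 genes became 1 with arrays shifted to the same median, with every row tested and at an adjusted p under 0.01, TAT remaining each time. Over all features the interaction calls were then 782 of 22464, 1025 of 70459 and 592 of 22464. With 1 array left out the count ran from 1 to 3, beside 916 to 3145 calls over all 22464 genes. The cause of these changes was not tested, except that the threshold and the number of rows tested act by construction. Depletion with DMSO gave 5 to 7 genes without 1 array, with PD98059 5 to 6, the drug 3 to 4 in complete medium and 6 to 7 without histidine. Over all 22464 genes these omissions gave 6608 to 9063, 5494 to 6830, 2579 to 4285 and 4857 to 7316 calls, in that order. Titles number the replicates without saying that a number marks a shared day or batch, so numbers were not taken as pairs in the main fit. Of 24 same-numbered pairs 9 had deviations correlated over 0.1, and 6 of 16 arrays were closest to their own number. Neither count was set against different-numbered pairs, some of which were also correlated over 0.1. The median correlation was 0.05 for the same-numbered pairs and -0.02 for the 72 different-numbered pairs, and the highest were 0.51 and 0.43. Whether some numbers share an effect was not tested. With a replicate block the counts were 5, 5, 4, 6 and 2 for depletion with DMSO, depletion with PD98059, the drug in complete medium, the drug without histidine and the interaction. Of all 22464 genes, that block called 8048, 6456, 3504, 5801 and 1492 in the same order. Over all genes, the interaction calls of the main fit numbered 1289. They were 782 with arrays shifted to the same median, 4615 with array weights and 3145 without replicate 3 of PD98059 without histidine. The drug in complete medium gave 3218 calls, and 5920 with array weights, so the shares of all genes depend on this choice. The filter on dim genes left out HAL, ARG1 and TDO2, and fitting only the groups of a contrast gives no interaction. Signal over background was not given, and 4 arrays a group limit the precision.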
